A study of Homo sapiens with 4 samples.

Results

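The proteins described here build the core of the spliceosome, together with the LSM proteins, which share the Sm fold. Members were the probe sets of the deposited table with 1 annotated symbol beginning with SNRP, LSM and a digit, SF3A, SF3B or PRPF. The rule uses names and no measured values, but the members were chosen with earlier results of these data known. It found 91 of 54613 probe sets, which stand for 45 of 19775 named genes. The SNRP symbols, here called the Sm group, gave 20 probe sets of 12 genes, and the LSM symbols 31 probe sets of 13 genes. SF3 symbols gave 20 probe sets of 9 genes and PRPF symbols 20 probe sets of 11 genes. Another 11 probe sets carried SNRPN beside other symbols and 1 stood for a divergent transcript of SNRPF, and these were passed over.

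The samples were RNA of HCT116, a colon carcinoma line long in use, measured on 4 Affymetrix arrays. Monolayers, in which cells grow flat on plastic, were set against spheroids, which are rounded cell aggregates, for HCT116 wt and for HCT116 wt/GFP, a version named for green fluorescent protein. There was 1 array for each line in each culture, which makes 2 arrays per culture. The labels give neither the promoter of the GFP gene, nor whether the GFP line is 1 clone, nor how long spheroids grew, nor how many cultures lay behind an array. The p-values therefore rest on the spread between these arrays, taken mostly from other genes of like signal, and this spread may be technical.

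Splicing removes introns from precursor RNA. It is carried out by small nuclear ribonucleoproteins, or snRNPs, each a small nuclear RNA bound by proteins. Sm proteins close into a ring around the U1, U2, U4 and U5 RNAs, and a ring of LSM2 to LSM8 binds the end of U6 RNA. When LSM1 replaces LSM8, the ring acts in the cytoplasm instead and takes part in mRNA decapping and decay. SF3A and SF3B are parts of the U2 snRNP that hold the branch point of the intron, and PRPF proteins belong largely to the tri-snRNP and to the complexes that activate the spliceosome. Splicing is needed in every dividing cell, and several PRPF genes are known for retinal disease when mutated.

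The deposited values are MAS5 signals, in which every array is scaled to the same trimmed mean. Several array measures moved with culture. Over all probe sets, the median signal was 48.0 (wt) and 48.8 (wt/GFP) in monolayers, against 67.3 and 68.4 in spheroids. The ratio of the 3′ to the 5′ probe set of ACTB, a sign of RNA integrity, was 1.32 and 1.30 in monolayers, against 1.76 and 1.73 in spheroids. The same ratio of GAPDH did not separate the cultures, at 0.897 and 0.882 against 0.868 and 0.951. Spheroid arrays also had brighter hybridisation controls, by 0.39 log2 units in wt and 0.79 in wt/GFP. The part of these differences in the results was not tested. The epithelial markers EPCAM, KRT8, KRT18, KRT19, CDH1 and CLDN4 lay above the filter on dim probe sets. Their signals summed to 105366 and 86977 in monolayers, against 117999 and 116876 in spheroids. The 5 fibroblast markers summed to signals of 444 and 435 in monolayers, against 2413 and 4030.4 in spheroids, mostly through COL1A1, and LUM and PDGFRB lay below the filter. The sum of 4 leukocyte markers was 123 and 62.0 against 401 and 368, mostly through LYZ, and PTPRC and CD14 lay below the filter. The sum of 4 endothelial markers was 164 and 138 against 247 and 278, and CDH5, VWF and KDR lay below the filter.

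Most of the core splicing genes were lower in spheroids. Of 45 member genes, each represented by its probe set with the highest mean, 33 fell and 2 rose, while 10 did not pass the test. A gene was called at an adjusted p under 0.05 in limma, over 14349 genes tested and with the cell line as a block. Among all genes tested, 18.5% were called lower and 30.6% were called higher. This balance depends on the scaling, with 21.0% lower and 23.6% higher after quantile normalization, 32.3% and 16.4% after median centring, and 26.1% and 6.84% with scaling to the hybridisation controls, where the median of all genes was 0.02, -0.17 and -0.37. A change below is the mean of the 2 lines on the scale log2(signal + 13.997), spheroids minus monolayer, with its moderated SE. The median change was -0.69 over the members, -0.68 in wt and -0.67 in wt/GFP, beside 0.23 over all genes tested. At least 2-fold falls were found for 9 members, beside 5.04% of all genes, namely SNRPF, SNRPB2, LSM3, LSM1, SF3A3, SF3B4, PRPF38A, PRPF19 and PRPF31. Of the 33 falls, 32 were also called after quantile normalization, median centring and scaling to the hybridisation controls, and 17.1% of all genes were called lower under the deposited and all 3 of these scalings. The exception was LSM12. Neither of the 2 rises was called under any of these 3 scalings, whereas 6.83% of all genes were called higher under all 4. In bulk RNA, fewer cells with a transcript and less transcript per cell cannot be told apart.

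**Figure D1:**
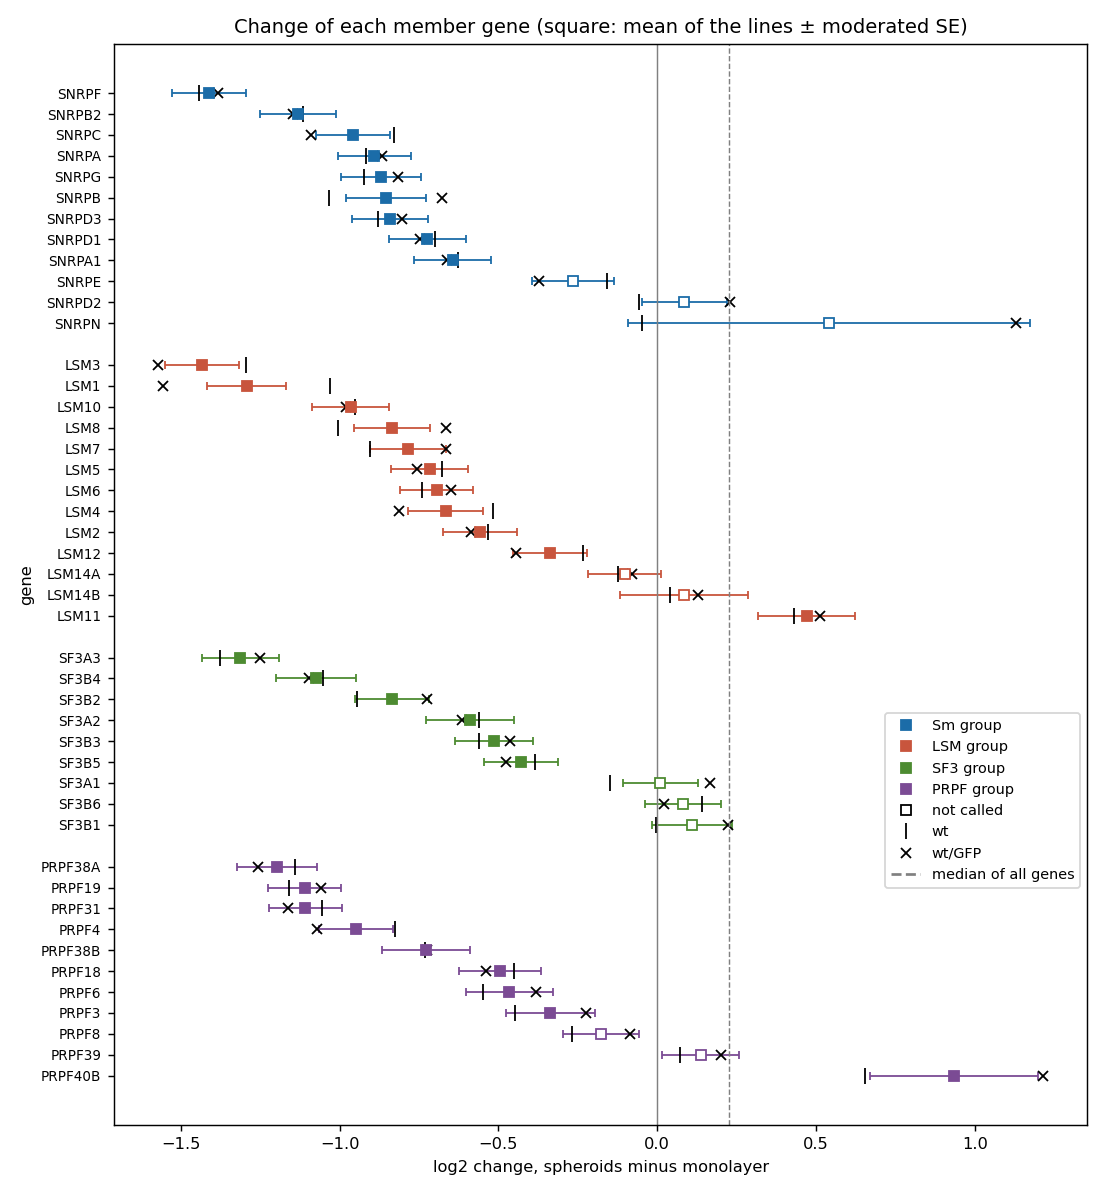
Change of each member gene between spheroids and monolayers in log2 units (x axis), genes by group (y axis). Squares give the mean of the lines with the moderated SE, bars the wt change, crosses the wt/GFP change, open squares genes not called, and the dashed line the median of all genes, 0.23. Of the 45 squares, 33 are filled and left of 0, and the filled squares to the right are LSM11 and PRPF40B.

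The promoters of the members with the deepest fall in each group are shown with those of the 2 genes that rose and of SNRPB2, so that they can be read side by side. SNRPB2 was chosen because its window holds the motif CCGGAAG, as the deepest fall among members with it not already shown. Each is the 250 bases before the start of the gene, from the RefSeq promoter table of build GRCh38.p14. Capitals mark matches to 5 motifs searched on both strands, none of which contains another. These were CCAAT, bound by NF-Y, and the ETS core motif CCGGAAG. The others were the E-box CACGTG, the palindrome bound by NRF1 and the TATA box TATAAA. SNRPF lies on the plus strand at chr12:95858702-95858951, LSM3 on the plus strand at chr3:14178567-14178816 and SF3A3 on the minus strand at chr1:37990023-37990272. PRPF38A lies on the plus strand at chr1:52404352-52404601, SNRPB2 on the plus strand at chr20:16729776-16730025, LSM11 on the plus strand at chr5:157743462-157743711 and PRPF40B on the plus strand at chr12:49623311-49623560.
SNRPF: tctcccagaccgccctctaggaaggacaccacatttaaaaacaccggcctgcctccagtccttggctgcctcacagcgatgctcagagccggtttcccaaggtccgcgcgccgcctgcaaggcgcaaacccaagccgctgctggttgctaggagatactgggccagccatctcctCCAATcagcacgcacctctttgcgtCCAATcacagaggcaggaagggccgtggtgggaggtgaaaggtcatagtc
LSM3: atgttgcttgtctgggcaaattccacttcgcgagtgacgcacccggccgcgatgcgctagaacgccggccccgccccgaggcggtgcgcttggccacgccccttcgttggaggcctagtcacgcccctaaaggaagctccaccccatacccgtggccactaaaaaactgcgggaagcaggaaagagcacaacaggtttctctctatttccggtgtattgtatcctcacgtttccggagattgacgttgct
SF3A3: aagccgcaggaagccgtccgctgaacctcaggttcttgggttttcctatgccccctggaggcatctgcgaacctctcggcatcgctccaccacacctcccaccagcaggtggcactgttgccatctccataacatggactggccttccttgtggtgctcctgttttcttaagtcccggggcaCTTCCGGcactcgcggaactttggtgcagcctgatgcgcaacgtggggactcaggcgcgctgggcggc
PRPF38A: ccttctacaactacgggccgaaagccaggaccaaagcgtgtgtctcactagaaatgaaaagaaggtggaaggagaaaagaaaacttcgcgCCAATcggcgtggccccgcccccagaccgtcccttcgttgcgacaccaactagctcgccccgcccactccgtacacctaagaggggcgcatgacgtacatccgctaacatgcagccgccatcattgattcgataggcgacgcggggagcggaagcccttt
SNRPB2: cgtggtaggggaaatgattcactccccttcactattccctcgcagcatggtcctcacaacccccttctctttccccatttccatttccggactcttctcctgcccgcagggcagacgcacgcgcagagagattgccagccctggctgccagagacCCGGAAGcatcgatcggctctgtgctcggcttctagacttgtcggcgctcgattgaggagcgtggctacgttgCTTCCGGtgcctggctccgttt
LSM11: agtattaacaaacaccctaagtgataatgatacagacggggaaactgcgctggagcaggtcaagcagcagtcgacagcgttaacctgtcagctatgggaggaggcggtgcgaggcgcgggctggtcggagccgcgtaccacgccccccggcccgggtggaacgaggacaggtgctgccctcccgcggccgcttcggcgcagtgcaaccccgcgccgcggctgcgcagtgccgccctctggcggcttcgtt
PRPF40B: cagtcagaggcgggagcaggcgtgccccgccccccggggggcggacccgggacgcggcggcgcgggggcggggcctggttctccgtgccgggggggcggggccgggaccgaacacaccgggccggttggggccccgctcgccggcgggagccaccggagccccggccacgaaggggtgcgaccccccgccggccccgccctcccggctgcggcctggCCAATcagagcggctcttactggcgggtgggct
A pair of CCAAT boxes stands 75 and 50 bases before the start of SNRPF. SNRPB2, which was chosen for holding CCGGAAG, has this motif 95 bases before its start and again 22 bases before it. None of the 5 motifs lies in the LSM3 or LSM11 window.

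Of the 45 members, 38 had a promoter in the table, and LSM1, LSM14A, LSM6, PRPF3, PRPF39, SF3B3 and SNRPD1 did not. CCGGAAG occurred in 17 of the 38, or 44.7%, beside 17.2% of 11506 tested genes with a promoter and 8.52% of all 35116 windows. It stood before 13 of 28 members that fell and 4 of the 10 others. CCAAT occurred in 17 members, 44.7%, beside 40.8% of tested genes and 32.0% of windows, and in 12 of the 28 that fell. The E-box CACGTG occurred in 1 member, SF3B1, which did not pass the test, or 2.63%, beside 10.7% of tested genes and 6.34% of windows. TATAAA occurred in SNRPC alone, 2.63% beside 8.74% of tested genes and 10.7% of windows. The NRF1 palindrome occurred in LSM7 alone, 2.63% beside 2.15% of tested genes and 1.03% of windows. These matches describe the reference sequence and are not sites measured in these cells.

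In the Sm group, 9 of 12 genes fell and none rose, with a median change of -0.85. SNRPF, a subunit of the Sm ring, had signals of 17050.1 and 15500.3 in the monolayers of wt and wt/GFP and 6262 and 5938 in their spheroids. Its log2 signal fell by 1.41 ± 0.12, or 2.66-fold (limma adjusted p = 8.91e-11), and the spheroid arrays lay below the monolayer arrays without overlap. SNRPB2, which with SNRPA1 binds a stem of U2 RNA, had signals of 18888 and 18333 in monolayers and 8716 and 8276 in spheroids. It fell by 1.13 ± 0.12 (adjusted p = 7.75e-09), and its spheroid values again lay below both monolayer values. SNRPC, the U1 protein that helps U1 to hold the start of the intron, had signals of 7176 and 7220.1 in monolayers and 4035 and 3384 in spheroids, a fall by 0.96 ± 0.12 (adjusted p = 9.34e-08). Here too the 2 conditions did not overlap. These genes, like those given first in the later groups, were chosen as the largest called falls. The absence of overlap in them is therefore not separate support.

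The 4 proteins specific to U1 or U2 all fell, with a median of -0.93, and SNRPA, which binds a U1 loop, fell by 0.89 and SNRPA1 fell by 0.64. Of the 8 genes for ring subunits, 5 fell, with a median of -0.78 over the 8. SNRPG fell by 0.87, SNRPB fell by 0.86, SNRPD3 fell by 0.84 and SNRPD1 fell by 0.72. On the chosen probe sets and the deposited scaling, the ring subunits thus were not all called lower. SNRPD2 had signals of 32498 and 24461 in monolayers and 31207 and 28684 in spheroids, so the conditions overlapped, and its change was 0.09 ± 0.13 (adjusted p = 0.635). SNRPE had 25941 and 23689.8 in monolayers against 23233 and 18302 in spheroids, a change of -0.27 ± 0.13 (adjusted p = 0.0911). A dimmer SNRPE probe set fell, however, from 3273 and 2834 to 2365 and 2314 (-0.38 ± 0.13, adjusted p = 0.0177 over all probe sets). The remaining one, near the filter, had a change of 0.21 ± 0.58 that did not pass (adjusted p = 0.808).

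SNRPE was called lower under 3 other scalings, with a change of -0.31 after quantile normalization (adjusted p = 0.0104), and SNRPD2 had a value of -0.51 when scaled to the hybridisation controls (adjusted p = 0.0161). SNRPN, the paralogue of SNRPB that is imprinted and known from brain, was carried by a probe set with signals of 25.4 and 20.7 in monolayers and 24.1 and 62.0 in spheroids. It lies at the filter threshold, a signal of 30.6, which it passed through the wt/GFP spheroid array, and its change of 0.54 ± 0.63 did not pass the test (adjusted p = 0.509).

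Of 13 LSM genes, 10 fell and 1 rose, with a median change of -0.69. LSM3, a subunit shared by the nuclear and cytoplasmic rings, had signals of 10679.9 and 9911 in monolayers and 4341 and 3325 in spheroids. Its fall by 1.43 ± 0.12, or 2.70-fold, was the largest of all 45 members (adjusted p = 6.96e-11), and the conditions did not overlap. Averaged with its second, dim probe set, LSM3 had a change of -0.32 that did not pass (adjusted p = 0.152). LSM1, the subunit that marks the cytoplasmic decay ring, had 8129.7 and 7214 in monolayers and 3971 and 2444 in spheroids. It fell by 1.29 ± 0.12 (adjusted p = 1.5e-09), more in wt/GFP, where the change was -1.56, than in wt, where it was -1.03. LSM10, a subunit of the U7 snRNP that matures the ends of histone mRNA, fell from 2598 and 2804 to 1337 and 1415, by 0.97 ± 0.12 (adjusted p = 1.78e-07). All spheroid values of LSM1 and LSM10 lay below all monolayer values.

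On the chosen probe sets, all 7 genes of the ring that binds U6 RNA, LSM2 to LSM8, fell, with a median of -0.72 and a range from -1.43 for LSM3 to -0.56 for LSM2. LSM8, which keeps this ring in the nucleus, fell by 0.84 and LSM7 fell by 0.79. LSM5 fell by 0.72, LSM6 fell by 0.69 and LSM4 fell by 0.67. The other 6 LSM genes were mixed, with 3 lower, 1 higher and a median of -0.22. LSM11, the U7 partner of LSM10, rose from signals of 651 and 625 to 881 and 898, a change of 0.47 ± 0.15 (adjusted p = 0.0115). Within the U7 pair, LSM10 and LSM11 thus moved in opposite directions with the deposited scaling.

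The rise of LSM11 was 0.31 after quantile normalization (adjusted p = 0.134) and turned to -0.12 after scaling to the hybridisation controls, and the call, though not the size, was lost without the wt (0.50, adjusted p = 0.0838) or the wt/GFP monolayer array (0.44, adjusted p = 0.126). LSM12, which is not known as a splicing factor, fell by 0.34 ± 0.12 (adjusted p = 0.017). Quantile normalization ended its call (adjusted p = 0.123), as did leaving out the wt monolayer (-0.37, adjusted p = 0.108), wt/GFP monolayer (-0.31, adjusted p = 0.193) or wt/GFP spheroid array (-0.27, adjusted p = 0.0721). LSM14A and LSM14B, proteins of cytoplasmic RNA granules, lay nearest to no change among the LSM genes. LSM14A had 6076 and 6205 in monolayers and 5571 and 5869.8 in spheroids, a change of -0.10 ± 0.11 (adjusted p = 0.485), and was called lower after median centring (-0.49, adjusted p = 0.000653). LSM14B had 296 and 409 in monolayers and 305 and 449 in spheroids, a change of 0.09 ± 0.20 (adjusted p = 0.76), and its conditions overlapped. Without the trend in the moderation, 6 LSM genes were called lower in place of 10.

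**Figure D2:**
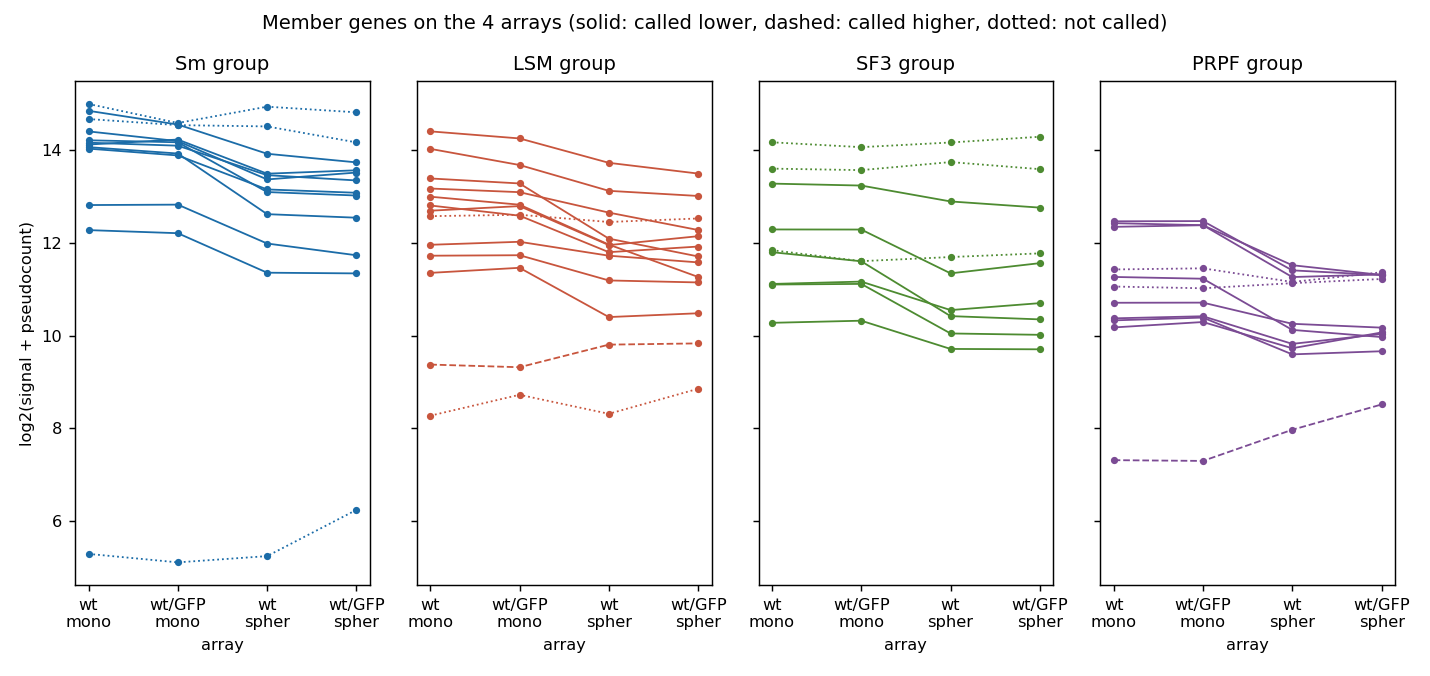
Signals of the 45 member genes on the 4 arrays as log2(signal + 13.997) (y axis), in 1 panel per group, with the arrays on the x axis. Each line joins the 4 values of a gene, solid for the 33 called lower, dashed for LSM11 and PRPF40B, called higher, and dotted for the 10 not called. The step lies between the monolayer pair and the spheroid pair in most solid lines, and the lines within a pair are nearly level.

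Among the SF3 genes, 6 of 9 fell and none rose, with a median of -0.51. SF3A3, a subunit of SF3A, had signals of 3543 and 3093 in monolayers and 1356 and 1291 in spheroids. It fell by 1.31 ± 0.12, or 2.49-fold (adjusted p = 6.65e-10), and the conditions did not overlap. SF3B4, an RNA-binding subunit that touches the precursor RNA upstream of the branch point, fell from 2181 and 2202 to 1044 and 1022, by 1.07 ± 0.13 (adjusted p = 5.93e-08). SF3B2, which pairs with SF3B4, fell from 4981 and 4974 to 2580.4 and 3006, by 0.83 ± 0.12 (adjusted p = 9.16e-07). For both, each spheroid value lay below each monolayer value.

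SF3A2 fell by 0.59, SF3B3 fell by 0.51 and SF3B5 fell by 0.43. The other, dimmer SF3B3 probe set had 358 and 355 in monolayers and 333 and 352 in spheroids. Its change of -0.06 ± 0.20 did not pass (adjusted p = 0.854 over all probe sets). SF3B1, the large scaffold of SF3B and a gene known for mutations in leukaemia and uveal melanoma, did not pass the test. Its signals were 18329 and 17047 in monolayers and 18276 and 19915 in spheroids, a change of 0.11 ± 0.13 (adjusted p = 0.5), and the conditions overlapped. SF3B6, the subunit at the branch point adenosine, had 12369 and 12095 in monolayers and 13639 and 12269.7 in spheroids, a change of 0.08 ± 0.12 (adjusted p = 0.611). SF3A1 had 3653 and 3098 in monolayers and 3295 and 3481 in spheroids, a change of 0.01 ± 0.12 (adjusted p = 0.956). Another SF3A1 probe set of like signal fell, however, from 3418 and 3642 to 2337 and 2753 (-0.47 ± 0.12, adjusted p = 0.00316 over all probe sets), so the probe sets of SF3A1 do not give 1 answer.

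Within SF3B, genes that fell (SF3B4, SF3B2) thus stood beside genes that did not pass the test (SF3B1, SF3B6). After median centring SF3A1 had a value of -0.38 (adjusted p = 0.00926) and SF3B6 of -0.31 (adjusted p = 0.032). SF3B3 lost its call without the wt/GFP monolayer array (-0.49, adjusted p = 0.0547) and SF3B5 without the wt/GFP spheroid array (-0.36, adjusted p = 0.0637), at sizes close to the full fit. Without probe sets shared between transcripts, 2 of 6 SF3 genes were called lower.

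PRPF genes followed with 8 of 11 lower and 1 higher, at a median of -0.50. PRPF38A, which joins the spliceosome before activation, had signals of 2444 and 2379.8 in monolayers and 1101 and 988 in spheroids, a change of -1.198 ± 0.13, or a 2.29-fold fall (adjusted p = 7.73e-09). PRPF19, the ubiquitin ligase that gives its name to the activating complex, fell from 5474 and 5309 to 2440.5 and 2539, by 1.11 ± 0.12 (adjusted p = 5.69e-09). PRPF31, a tri-snRNP protein mutated in retinitis pigmentosa, fell from 5626 and 5646 to 2699 and 2516, also by 1.11 ± 0.11 (adjusted p = 5.68e-09). On the chosen probe sets, the conditions did not overlap for any of these 3 genes. A second PRPF38A probe set fell by 0.82 ± 0.14 (adjusted p = 2.08e-05 over all probe sets). The third had 922 and 864 in monolayers and 879 and 716 in spheroids, so the conditions overlapped. Its change of -0.17 ± 0.15 did not pass (adjusted p = 0.407 over all probe sets).

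Of the 5 tri-snRNP members, PRPF3, PRPF4, PRPF6, PRPF8 and PRPF31, 4 fell, with a median of -0.47. PRPF4 fell by 0.95, PRPF6 fell by 0.47 and PRPF3 fell by 0.34. PRPF8, the large protein at the catalytic centre, had 2735 and 2782 in monolayers and 2267 and 2622 in spheroids, a change of -0.18 ± 0.12 that did not pass the test (adjusted p = 0.228) but passed without the wt/GFP spheroid array (-0.28, adjusted p = 0.0481) and after median centring (-0.57, adjusted p = 0.000234). PRPF38B fell by 0.73, and PRPF18, a factor of the second splicing step, fell by 0.50. PRPF39, a U1-associated protein, had 2117 and 2062 in monolayers and 2227 and 2370.4 in spheroids, a change of 0.14 ± 0.12 (adjusted p = 0.37).

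PRPF40B rose from 146 and 144 to 237 and 352, by 0.94 ± 0.26 (adjusted p = 0.00428). Its monolayer values lay below both spheroid values, but the call did not survive quantile normalization (adjusted p = 0.0891) or the fit without the wt/GFP spheroid array (0.66, adjusted p = 0.115). Among the smaller falls, PRPF3 lost its call without the wt monolayer (-0.39, adjusted p = 0.174), wt spheroid (-0.17, adjusted p = 0.275) or wt/GFP monolayer array (-0.28, adjusted p = 0.357), and also without the replicate block (adjusted p = 0.0753). PRPF18 lost its call without the wt (-0.50, adjusted p = 0.0618) or wt/GFP monolayer array (-0.49, adjusted p = 0.0622), at an unchanged size. PRPF6 lost its call without the same arrays (-0.49 and -0.44, adjusted p = 0.0786 and 0.111). In such fits the lone array of a culture is assumed to vary like the pair of the other culture. The count of PRPF genes called lower was 5 without either monolayer array in place of 8.

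Side by side, the medians ran from -0.85 in the Sm group through -0.69 in the LSM group and -0.51 in the SF3 group to -0.50 in the PRPF group. In wt the medians were -0.85, -0.68, -0.56 and -0.55, and in wt/GFP -0.78, -0.67, -0.48 and -0.54, so SF3 and PRPF changed places between the lines. The ranges overlapped widely, from -1.41 to 0.54, -1.43 to 0.47, -1.31 to 0.11 and -1.198 to 0.94, and the difference between the groups was not tested. Relative to the median of all genes, the median of the members lay at -0.92. The order below the Sm group depended on processing. On this relative scale, the Sm, LSM, SF3 and PRPF medians were -0.759, -0.5596, -0.5276 and -0.5645 after quantile normalization. Without shared probe sets they were -1.156, -0.9595, -0.2881 and -0.877. Median log2 signals of these groups in the wt monolayer, 14.1, 12.7, 11.8 and 11.1, followed the order found with the deposited scaling. The part of signal in that order was not tested.

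The share of lower calls also depended on signal over all genes. Among 3477 tested genes with a mean log2 signal above 10 and up to 12, 34.8% were called lower, and 16 of the 19 members in that range fell. Above 12, 41.2% of 1606 genes were called lower, and 16 of the 21 members fell. The medians in these ranges were -0.59 and -0.72 for the members and -0.02 and -0.15 for all genes. Below, the 5 members with a mean up to 10 gave 1 fall and 2 rises, where 2.44% of all genes with means up to 8 were called lower and 23.1% higher, and 16.6% and 42.1% of those between 8 and 10. With 5 members, these rises are near the shares over all genes. These ranges were chosen after the data were seen.

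**Figure D3:**
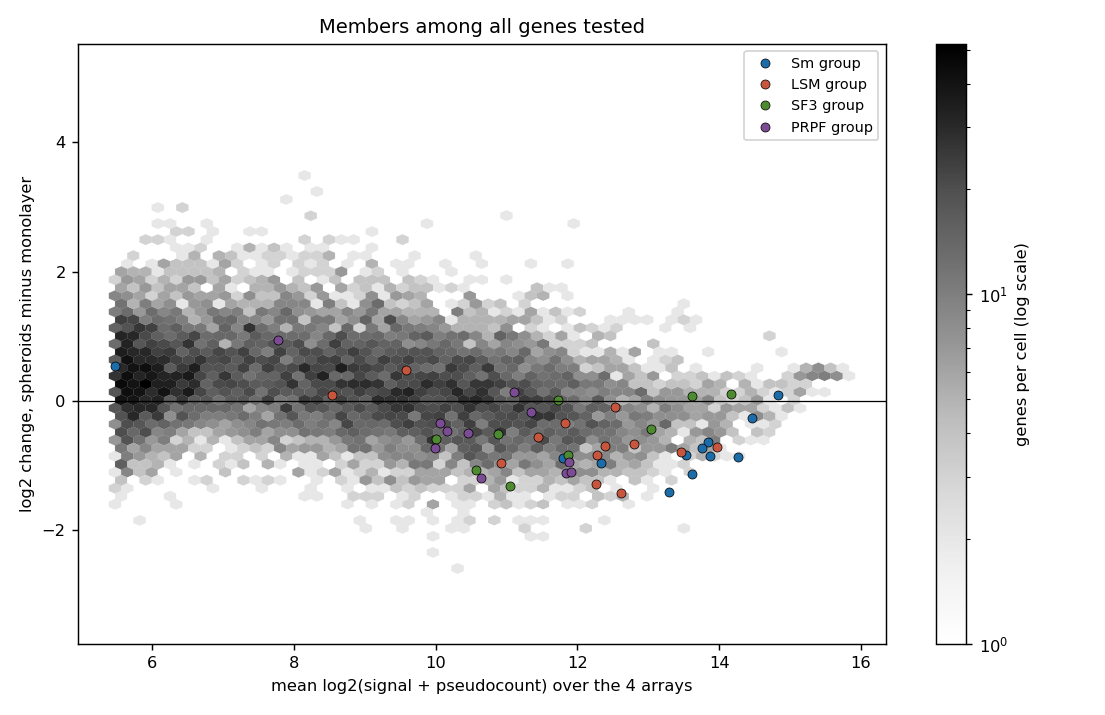
Change in log2 units (y axis) against mean log2(signal + 13.997) over the 4 arrays (x axis) for all 14349 genes tested, as grey cells shaded by the number of genes on a log scale, with the 45 members as coloured points by group. Of the members, 40 have a mean above 10, where 32 fell, and most points lie in the lower part of the grey cloud.

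Probe sets of a gene did not always move together. Of the 91 probe sets, 89 passed the filter, and 46 of these were called lower and 7 higher when each was tested alone, beside 14.6% and 25.5% of 32768 probe sets. Without the trend in the moderation these counts were 6 and 1, and without probe sets shared between transcripts 22 of 52 fell. By group, 14 of 20 Sm probe sets, 14 of 31 LSM, 8 of 20 SF3 and 10 of 18 PRPF probe sets fell. Of 62 member probe sets with a mean log2 signal above 9, 45 fell and 1 rose, whereas of 27 with a mean up to 9, 1 fell and 6 rose. Over all probe sets with a mean above 9, 30.9% were called lower and 30.4% higher, at a median of -0.01. Up to 9, 5.57% were called lower and 22.7% higher, at a median of 0.36. The share of rises among the dim member probe sets, 22.2%, was thus near that over all dim probe sets. Of 25 members with several tested probe sets, 12 had only negative changes and 2, SF3B1 among them, only positive ones, while 11 had both signs.

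LSM8, PRPF18 and PRPF38B had probe sets called in opposite directions. The LSM8 probe set described above fell from 7130 and 6123 to 3544 and 3856, but another rose from 287 and 311 to 496 and 562 (0.79 ± 0.19, adjusted p = 0.00138 over all probe sets). The remaining 2 rose as well, from 58.0 and 47.6 to 126 and 128, and from 22.4 and 24.9 to 100.04 and 93.8. The last of these lay below the filter signal of 30.6 in both monolayers and was kept only through its spheroid values, so it could only be tested because it was higher there. Taken as the mean of its 4 probe sets, LSM8 would be called higher at 0.65 (adjusted p = 0.0116). PRPF38B fell from 1272 and 1326 to 760.0 and 797 on 1 probe set and rose from 189 and 154 to 289 and 353 on the other (0.85 ± 0.24, adjusted p = 0.00608). PRPF18 fell from 1658 and 1662 to 1208 and 1139.6 on its main probe set, while a second rose from 41.8 and 12.2 to 106 and 128 (1.77 ± 0.48, adjusted p = 0.00425). This second probe set, on which the opposite call of PRPF18 rests, was likewise kept only through its spheroid values, as its mean in monolayers lay below the filter. As means of their probe sets PRPF18 had a change of 0.64 (adjusted p = 0.0298) and PRPF38B of 0.06 (adjusted p = 0.761). The same averaging ended the calls of LSM4 (-0.28), SF3B2 (-0.31), SF3B3 (-0.28), PRPF6 (-0.41) and LSM11 (0.25), with adjusted p of 0.0653, 0.0965, 0.0955, 0.0786 and 0.421. SF3B6 was then called higher (0.60, adjusted p = 0.00919). The dim SF3B6 probe set in this mean had signals of 10.1 and 25.7 in monolayers and 50.2 and 55.8 in spheroids. It too was kept only through its spheroid values, so its rise is no separate support.

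Which part of the transcript each probe set reads was not analysed here. The other genes with both signs were SNRPA1, SNRPE, LSM3, LSM4, LSM11, LSM14B, SF3A1 and SF3B2, and in these no 2 probe sets were called in opposite directions. In SNRPA1, 3 probe sets fell by 0.64 to 0.98 and the fourth had a change of 0.86 that did not pass (adjusted p = 0.0759). LSM5 gave the opposite case, in which all 3 probe sets fell, by 0.72 ± 0.13, 1.11 ± 0.14 and 1.56 ± 0.17. All 5 SF3B1 probe sets lay between 0.08 and 0.19 and none passed.

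**Figure D4:**
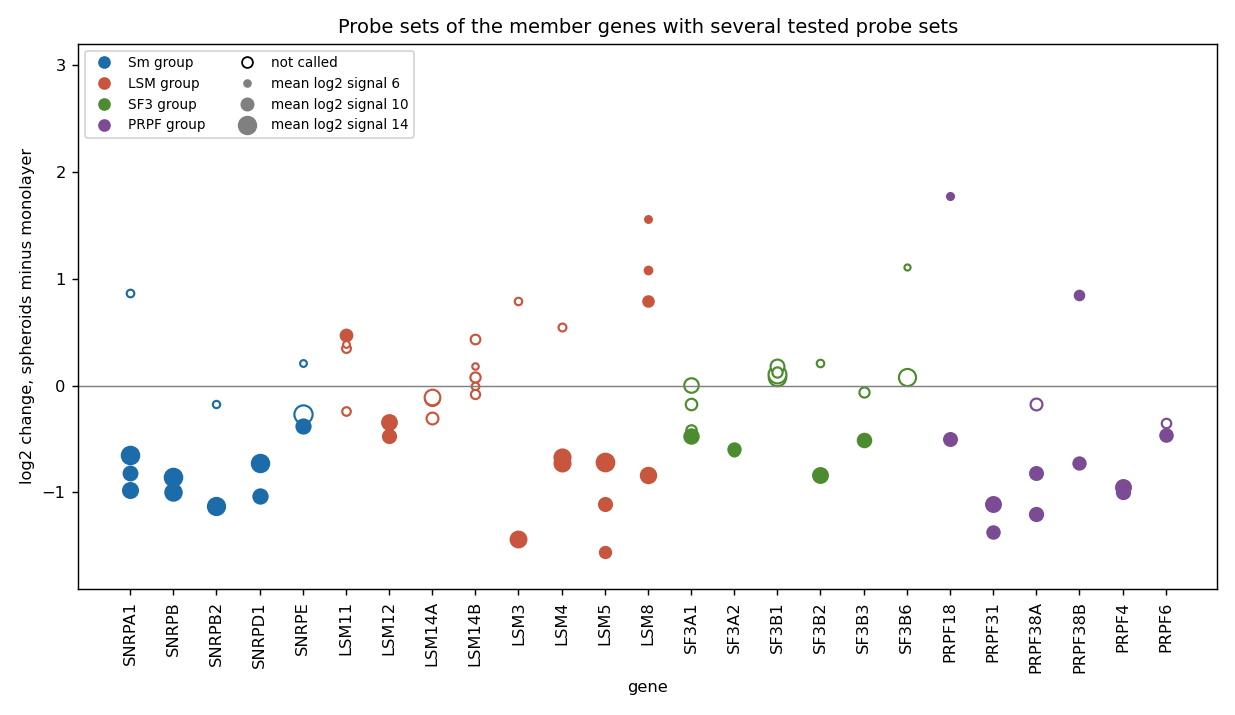
Change in log2 units (y axis) of every tested probe set of the 25 member genes with several (x axis), coloured by group, filled where called, with the area growing with the mean log2 signal. Small points lie above 0 for LSM8, PRPF18 and PRPF38B while the large point of the same gene lies below 0, and the 5 points of SF3B1 cluster near 0.

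The 2 lines gave much the same picture. Of 45 members, 41 had changes of the same sign in both lines, beside 80.8% of all genes tested. Across the 45 members the changes in wt and wt/GFP had a Pearson r of 0.91 and a Spearman rho of 0.92, as a description of genes that share the same 4 arrays. Between wt/GFP and wt, 0 members were called in limma, beside 0.0279% of all genes, and 3 had an unadjusted p under 0.05. These were LSM1, lower in wt/GFP by 0.43 log2 units over both cultures (unadjusted p = 0.0017, adjusted p = 0.379), LSM14B (adjusted p = 0.715) and LSM3 (adjusted p = 0.755). The share of all genes under this unadjusted level is not given here, so the 3 are not read as a difference between the lines. With the filter at the 60th percentile LSM1 was called between the lines (adjusted p = 0.0397). Whether the culture change itself differed between the lines could not be tested with 1 array per combination.

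Other genes of the splicing pathway were counted from lists written for this purpose. Each count here and below stands beside 18.5% called lower and 30.6% called higher over all genes tested. Among snRNP proteins with other names, 10 of 18 fell and none rose, with a median of -0.46. PPIH, a cyclophilin of the tri-snRNP, fell by 1.60 ± 0.12, SNRNP25, a protein of the minor spliceosome, fell by 1.56 ± 0.12, and PHF5A, the small SF3B subunit beside SF3B1, fell by 1.47 ± 0.12 (adjusted p = 9.79e-12, 2.85e-11 and 4e-11). All 10 tested genes for recognition of the branch point and the end of the intron fell, with a median of -0.67. RBM17 fell by 0.96 ± 0.11, U2SURP fell by 0.78 ± 0.12 and PUF60 fell by 0.77 ± 0.11. In the PRP19 complex and the activated spliceosome, 13 of 19 fell and 1 rose, with a median of -0.47. ISY1 fell by 0.93, BCAS2 fell by 0.83 and BUD13 fell by 0.79, and the gene that rose, named after its value was seen, was RNF113A at 0.48 ± 0.18. Of 8 splicing helicases and second step factors, 3 fell and 1 rose. The share of falls is near the 34.8% called lower of all genes with a mean log2 signal above 10 and up to 12. SLU7, which helps to choose the end of the intron, rose by 0.71 ± 0.12, whereas GCFC2 fell by 0.60 and DHX16 fell by 0.55. SLU7 lost its call on the scale of the hybridisation controls (0.12, adjusted p = 0.833) and with the mean of its probe sets (0.29, adjusted p = 0.0748). GCFC2 lost its call without the wt monolayer (-0.51) or wt/GFP spheroid array (-0.36). Without the trend in the moderation, GCFC2 and DHX16 were not called (adjusted p = 0.0801 and 0.0737).

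Factors that assemble snRNPs fell as well, 15 of 19 with none higher, at a median of -0.61. WDR77 and PRMT5, partners in the complex that methylates Sm proteins, had changes of -1.85 ± 0.13 and -1.10 ± 0.11, and GEMIN6, of the SMN complex that loads the Sm ring, fell by 1.22 ± 0.14 (adjusted p = 2.7e-12, 6.32e-09 and 2.26e-08). GEMIN6 lost its call when its probe sets were averaged (-0.39, adjusted p = 0.094). Of 8 decapping genes, partners of the cytoplasmic LSM ring, 0 fell and 3 rose in limma, with a median of -0.04 that was -0.63 on the scale of the hybridisation controls. The share of rises is near that over all genes, and the difference from the assembly list was not tested. XRN1, the exonuclease that degrades decapped mRNA, rose by 0.89 ± 0.17, DCP1B by 0.54 ± 0.14 and PATL1 by 0.34 ± 0.14. After scaling to the hybridisation controls XRN1 had a value of 0.30 (adjusted p = 0.526), and DCP1B and PATL1 turned to -0.06 and -0.25. PATL1 also lost its call without the wt (adjusted p = 0.305) or wt/GFP monolayer array (adjusted p = 0.157).

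Of 6 genes for the ends of histone mRNA, 3 fell, and none rose. Of all genes with a mean log2 signal above 10 and up to 12, 34.8% were called lower. CPSF2 and CPSF3 each fell by 0.68, and SLBP fell by 0.67. Without the trend in the moderation, none of these 3 was called (adjusted p = 0.111, 0.057 and 0.0541). CPSF2 lost its call without the wt/GFP monolayer array (adjusted p = 0.0604). All 10 proliferation genes fell, with a median of -1.71, led by CCNA2, CCNB1 and MCM2 with changes of -2.15, -2.01 and -2.01. Their part in the fall of the splicing genes was not tested.

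**Figure D5:**
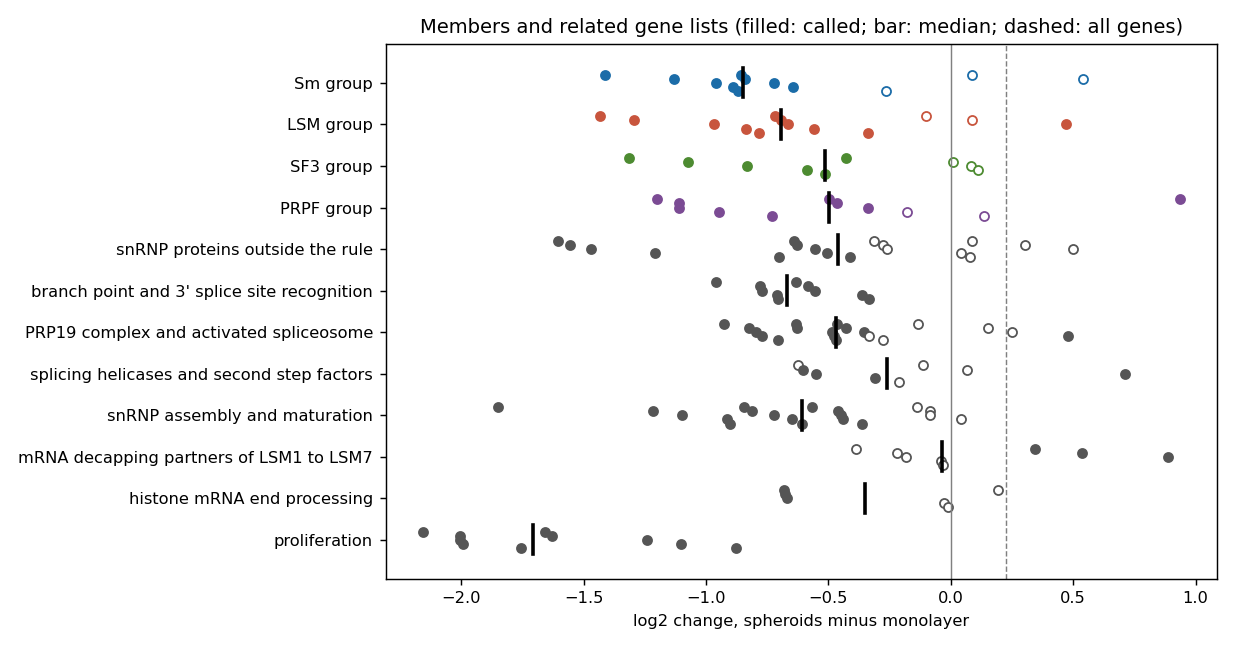
Change in log2 units (x axis) of each tested gene in the 4 member groups and 8 related lists (y axis), filled where called, with a bar at the median of each list and a dashed line at the median of all genes, 0.23. The bars of the member groups lie between -0.85 and -0.50, that of the decapping list lies at -0.04 and that of the proliferation list at -1.71.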

How the data were processed

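The deposited values are intensities, MAS5 signals on a linear scale per the submitters' processing notes, for 4 arrays. No source used here gives the MAS5 version. Probe set names come from the platform annotation, with symbols brought up to date from RefSeq's gene table, which changed no member's symbol. Signals became log2(signal + 13.997), the pseudocount being the 25th percentile of all values. Probe sets above the 40th percentile of mean log2 signal, 5.48, were kept (32768), and each gene took the one with the highest mean. Culture and cell line were the terms of a limma 3.58.1 fit (R 4.3.3) with trended moderation, which left 1 residual beside 25.9 prior degrees of freedom. Errors thus rest mainly on other genes of like signal. The number of arrays limits the precision. P-values are two-sided, with Benjamini-Hochberg adjustment over all genes. The labels name the line of every array, and the line pairs the arrays. Across genes, the wt/GFP minus wt difference in monolayers correlated at 0.00684 with the same difference in spheroids. Named genes were the 3 called members of each group with the largest change, called members against the majority, the 2 nearest to no change, members whose probe sets disagree, and up to 3 per related list. Other members were added to account for all. Members, lists and subgroups were chosen with earlier results of these data known. Alternatives were other scalings, pseudocounts, filters, probe set choices and moderation, a fit with no block, and fits without 1 array. All steps were tested on simulated data.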

Additional observations from a re-analysis of the deposited data

Results flagged for a closer look

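Of the 45 members, 4 had changes of opposite sign in the 2 lines, and none of these passed the test. The difference between the lines was not tested, since each rests on 1 array per combination. SNRPN had a change of -0.05 in wt and 1.13 in wt/GFP, a difference of 1.18 log2 units, at signals near the filter. SF3A1 had -0.15 and 0.17, a difference of 0.32. SNRPD2 had -0.06 and 0.23, a difference of 0.29. SF3B1 had -0.0042 and 0.22, a difference of 0.23.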

How the results depend on the processing

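The count of 33 members called lower stayed between 22 and 38 under all alternatives run, with 33 after quantile normalization, 38 after median centring, 35 after scaling to the hybridisation controls, 24 when probe sets were averaged per gene, 22 of 34 tested without shared probe sets and 22 without the trend. Over all genes the share called lower moved as well, from 18.5% to 21.0%, 32.3%, 26.1%, 15.4%, 15.1% and 8.18% in these settings. The 9 Sm genes called lower became 8 to 11. Without the trend, 6 LSM, 3 SF3 and 5 PRPF genes were called lower, 0 members in any group were called higher, and 6 member probe sets fell and 1 rose. Without shared probe sets 2 SF3 genes, 4 PRPF genes and 22 probe sets fell, and with the mean of probe sets 4 PRPF genes fell while 4 members rose, 2 of them PRPF and 1 of them SF3. Quantile normalization, median centring and scaling to hybridisation controls each called 0 members higher, 0 in the LSM and 0 in the PRPF group. They called 1, 1 and 0 member probe sets higher, beside 7, and the filter at the 60th percentile called 4 probe sets higher and 1 member between the lines. Leaving out 1 array, which also drops the line block, gave 28 to 32 members lower, 5 to 9 PRPF genes lower, and 1 to 2 members higher, with 0 to 1 in the LSM group, 0 to 1 in the PRPF group and 2 to 6 probe sets higher.

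Directions turned for SNRPA1 without shared probe sets (0.86), SNRPD2 (-0.51) and LSM11 (-0.12) with hybridisation controls, LSM8 (0.65), PRPF18 (0.64) and PRPF38B (0.063) with the mean of probe sets, and SF3A1 (-0.38) and SF3B6 (-0.31) with median centring. Those of DCP1B (-0.056) and PATL1 (-0.25) turned with hybridisation controls, and PATL1 (-0.048) with median centring. The cause was not tested. Without the replicate block, 32 members were called lower and 2 higher, and the only member that lost its call was PRPF3.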
